A study of Mus musculus with 27 samples.

Results

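The genes described here encode the LKB1 complex and the subunits of AMP-activated protein kinase (AMPK). They are 10 of the 22359 protein-coding genes of the annotation: *Stradb*, *Strada*, *Stk11*, *Cab39*, *Prkaa1*, *Prkaa2*, *Prkab1*, *Prkab2*, *Prkag1* and *Prkag2*. *Stradb* was chosen from the measured values, because its promoter region is in the authors' list of decreased H3K4me2, and the other 9 were selected as the genes of the same pathway. For each gene, the regions of the authors' merged list of H3K4 methylation that lay in the gene body or within 5 kb of an annotated transcription start site (TSS) were collected. This gave 143 of 358833 regions, and no region was counted for more than 1 gene. Since *Stradb* was chosen on the H3K4me2 list, and the members with earlier results of these data known, the regions and the 2 decreased lists are given as a description, without a test.

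The regions came from hearts of mouse embryos at embryonic day (E) 11.5 on a C57BL/6 background. Control hearts were Tnnt2::Cre;Kmt2d fl/+ and mutant hearts were Tnnt2::Cre;Kmt2d fl/fl, and both also carried mTmG/+, a fluorescent reporter of Cre activity. The controls therefore carried Cre and 1 floxed copy of *Kmt2d*, the gene of an H3K4 methyltransferase, and are heterozygous, although the sample titles call them WT. Cre was driven by the *Tnnt2* promoter, which is active in heart muscle cells, so the other cells of the heart kept *Kmt2d*. Each genotype had 3 pools of 30 hearts. A pool gave an input library and 1 library for each of H3K4me1, H3K4me2 and H3K4me3, which makes 24 heart libraries in 8 of the 9 groups of the series. The other 3 of the 27 libraries, KMT2D ChIP-Exo from cardiomyocytes derived from embryonic stem cells, were not analysed here. The deposited lists hold only the coordinates of each region and no level, so the depth is unknown, no value per replicate could be formed, the loss of *Kmt2d* could not be checked, and no difference could be set against the spread between pools. A merged region can carry H3K4me1, H3K4me2 or H3K4me3, and the list does not say which. The widths given here are therefore of merged regions and not of H3K4me2 alone. Whether a region is in a decreased list was decided by the authors over all replicates, at their own false discovery rate. In whole hearts, fewer cells with a mark and less of the mark per cell cannot be told apart.

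LKB1, encoded by *Stk11*, is a serine/threonine kinase and tumor suppressor. It is switched on by binding a STRAD pseudokinase, which holds the kinase fold but lacks catalysis, and the scaffold protein MO25, encoded by *Cab39*. The active complex phosphorylates the activation loop of AMPK and of a family of related kinases. AMPK is a heterotrimer of a catalytic α subunit, a β subunit that bridges the complex and binds glycogen, and a γ subunit that binds AMP, ADP and ATP. It senses a fall in cellular energy and shifts the cell from biosynthesis to fuel oxidation, and in heart muscle it governs glucose uptake, glycogen and fatty acid use. Of the histone marks, H3K4me1 is typical of enhancers and H3K4me3 of promoters, and H3K4me2 is found at both.

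The DNA next to the start sites is shown for the genes whose promoter region was in the decreased H3K4me2 list, with *Strada*, the paralogue of *Stradb*, beside them. Each stretch ends at or next to the main TSS, which is the most 5′ start among the protein-coding transcripts, and is free of annotated exons. Sequences are from NCBIM37 (mm9), 5′ to 3′ on the strand of the gene, and capitals mark a GC box (GGGCGG) or a CCAAT box (CCAAT) on either strand. For *Stradb* the stretch is the whole interval of 91 bases between its TSS and that of *Trak2*, which is transcribed in the opposite direction.
*Stradb*, chr1:59030275-59030365, plus strand: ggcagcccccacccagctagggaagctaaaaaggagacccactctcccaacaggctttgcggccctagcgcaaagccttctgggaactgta
*Strada*, chr11:106054887-106055136, minus strand: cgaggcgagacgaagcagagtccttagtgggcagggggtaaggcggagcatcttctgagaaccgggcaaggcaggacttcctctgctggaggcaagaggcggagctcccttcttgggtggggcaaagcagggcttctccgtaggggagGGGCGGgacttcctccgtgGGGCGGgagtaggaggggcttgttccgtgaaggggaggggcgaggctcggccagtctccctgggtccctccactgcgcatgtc
*Prkab1*, chr5:116474518-116474767, minus strand: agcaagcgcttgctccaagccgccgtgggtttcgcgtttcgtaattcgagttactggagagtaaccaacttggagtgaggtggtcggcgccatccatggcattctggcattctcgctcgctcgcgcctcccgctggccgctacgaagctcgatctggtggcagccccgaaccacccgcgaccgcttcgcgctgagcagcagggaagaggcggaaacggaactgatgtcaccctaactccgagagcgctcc
*Prkab2*, chr3:97461885-97462115, plus strand: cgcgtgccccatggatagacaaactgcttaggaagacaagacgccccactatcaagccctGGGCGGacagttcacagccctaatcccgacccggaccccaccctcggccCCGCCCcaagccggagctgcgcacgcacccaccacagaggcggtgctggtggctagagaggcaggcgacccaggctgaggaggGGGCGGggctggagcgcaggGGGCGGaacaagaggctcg
The *Stradb* and *Prkab1* stretches held none of the motifs searched. The *Strada* stretch held 2 GC boxes and that of *Prkab2* held 4.

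The promoters of 3 of the 10 genes were in the decreased H3K4me2 list, and they encode a pseudokinase of the LKB1 complex (*Stradb*) and both β subunits of AMPK (*Prkab1* and *Prkab2*). Over all 15099 protein-coding genes with a main TSS inside a merged region, 28.7% had that region in the list. The members' count was close to this share, but *Stradb* was in it by choice. Among the other genes, only *Prkab1* and *Prkab2* had the main TSS region in the list. *Prkag2*, a γ subunit gene, had a decreased region over an internal promoter, which brought the genes with any decreased H3K4me2 region to 4 of 10. Of 20017 protein-coding genes with a region, 28.7% had a decreased H3K4me2 region. *Prkag2* was also the 1 gene of the 10 with decreased H3K4me1, in 2 introns, where 7.07% of protein-coding genes had such a region. These shares were not matched for gene length or number of regions. The 10 genes had a median length of 30116.5 bp and 6 regions, against 15427 bp and 4 regions for all protein-coding genes, and *Prkag2* had 67 regions. The other 6 genes (*Strada*, *Stk11*, *Cab39*, *Prkaa1*, *Prkaa2* and *Prkag1*), which include LKB1 itself, its scaffold and both catalytic subunits, were in neither list.

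Counted by region, 4 of the 143 regions (2.80%) were in the decreased H3K4me2 list and 2 (1.40%) were in the decreased H3K4me1 list. No region was in both, and the 4 include the *Stradb* region, which was chosen for being in the list. Among all 194687 merged regions at protein-coding genes the shares were 2.69% and 0.935%, and among all merged regions they were 1.87% and 0.761%. *Prkag2* alone held 67 regions, or 46.9% of the total, and without it 3 of 76 regions (3.95%) were in the H3K4me2 list.

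Each of the 4 decreased H3K4me2 regions held a TSS of its gene, as decreased regions at genes mostly did. Of the 143 regions, 17 held an annotated TSS of a member and 126 did not, and 4 of the 17 (23.5%) and 0 of the 126 were in the H3K4me2 list. Over all merged regions at protein-coding genes, 22.5% of the 17752 that held a TSS of such a gene and 0.695% of the 176935 that held none were in the list. The members' shares were close to these, but the 4 include the *Stradb* region, which was chosen for being in the list. Which regions carried H3K4me2 in controls is not given, so none of these shares is of H3K4me2 regions alone. The regions without a member's TSS included 6 of at least 5 kb, none of which was in either list. Most regions were small and lay in introns: 97 (67.8%) were intronic, 49 were under 500 bp, the narrowest was 60 bp and the median width was 1020 bp. The 10 genes had 58 transcripts with 51 TSS positions, of which 43 lay in a region, 17 in a decreased H3K4me2 region and 8 in no region.

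**Figure D1:**
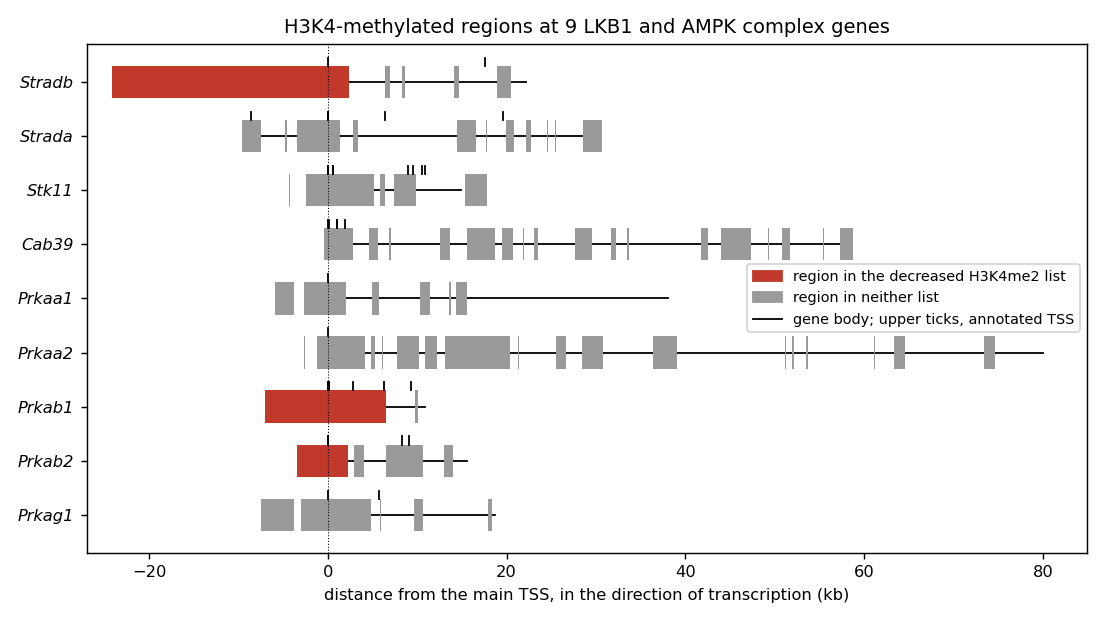
Merged H3K4 methylation regions at 9 of the 10 genes, all but *Prkag2*, by distance from the main TSS in kb with the direction of transcription to the right; colors give the list a region is in. The decreased H3K4me2 regions of *Stradb*, *Prkab1* and *Prkab2* sit over the main TSS, whereas 6 genes have no decreased region.

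*Stradb* encodes STRADβ, a pseudokinase that binds and activates LKB1. The gene lies at chr1:59030366-59052559 on the plus strand and spans 22194 bp. It had 5 regions, with widths of 26480, 580, 340, 580 and 1580 bp. The region over the TSS, chr1:59006226-59032705, was in the decreased H3K4me2 list and not in the decreased H3K4me1 list. It made up 89.6% of the summed width of the 5 regions, 29560 bp, which counts each region in full. None of the other 4 regions, at 6.67 to 19.7 kb downstream of the TSS by their centers, was in either list. A TSS of a transcript subject to nonsense-mediated decay, 17536 bp downstream, lay 1364 bp from the nearest region.

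The region over the *Stradb* TSS was among the widest of any promoter. Only 65 of 15099 genes (0.430%) had a TSS region at least this wide, and 54 of these (83.1%) were in the decreased H3K4me2 list. Both counts are of genes, so a shared region counts more than once. They include *Stradb*, chosen for being in the list, and *Trak2*, whose TSS lies in the same region. The median TSS region was 3640 bp wide, with quartiles of 2350 and 5660 bp. The region was also lopsided, since it reached 24140 bp upstream of the *Stradb* TSS and 2339 bp into the gene. The upstream reach stood at percentile 99.9 of all TSS regions and was at least 20 kb in only 12 genes, whereas the downstream reach was ordinary, at percentile 54.6 (median 2159 bp).

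Most of this region lay over a neighboring gene. *Trak2*, which encodes an adaptor that links mitochondria to kinesin motors, starts 91 bases away and runs in the opposite direction (chr1:58957293-59030274, 72982 bp). Of the region's length, 24049 bp (90.8%) lay over *Trak2* and 2340 bp (8.84%) over *Stradb*. It covered 33.0% of *Trak2*, including 2 of its exons, and 10.5% of *Stradb*. *Trak2* had 13 regions, of which this 1 was in the H3K4me2 list and 0 were in the H3K4me1 list. It was the only main TSS region among those of the 10 genes to hold the TSS of another protein-coding gene. Because the list makes a single call for the whole region, the decrease cannot be assigned to the *Stradb* side, the *Trak2* side or both.

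*Strada* encodes STRADα, the paralogue that also activates LKB1. Its gene (chr11:106024644-106063482, minus strand) is 38839 bp long and had 11 regions, against 5 at *Stradb*. Their summed width in full was 13880 bp against 29560 bp, but inside the gene windows it was 13422 bp against 10420 bp and inside the gene bodies 12439 bp against 5420 bp, so on both of the latter measures *Strada* had the greater covered length. The region over the main TSS, chr11:106053486-106058385, was 4900 bp wide and was in neither list. The *Stradb* region was 5.40 times as wide. The *Strada* region reached 3499 bp upstream and 1400 bp downstream. It was 1 of 5 members' regions, with those of *Stradb*, *Prkaa1*, *Prkab1* and *Prkab2*, that extended further upstream than downstream, as 25.3% of genes' regions did. A noncoding transcript of *Strada* started 8596 bp upstream of the main TSS, in a region of 2100 bp that also held the TSS of *Ccdc47* and was in neither list.

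The 5 genes whose TSS region in the H3K4me2 list was closest in width to that of *Stradb* were *Dyrk1a* (26520 bp), *Mbnl2* (26540 bp), *Irs2* (26580 bp), *Nt5c3* (26220 bp) and *Arhgef17* (26180 bp). All 5 extended into their own gene, by 22572 to 25674 bp downstream of the TSS, and by 865 to 4007 bp upstream. Measured from the *Stradb* TSS, its region was the reverse of these. From the TSS of *Trak2*, which shares the region, it reached 24048 bp into that gene, within the downstream range of the 5. The *Arhgef17* region was also in the decreased H3K4me1 list, and those of the other 4 were not.

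**Figure D2:**
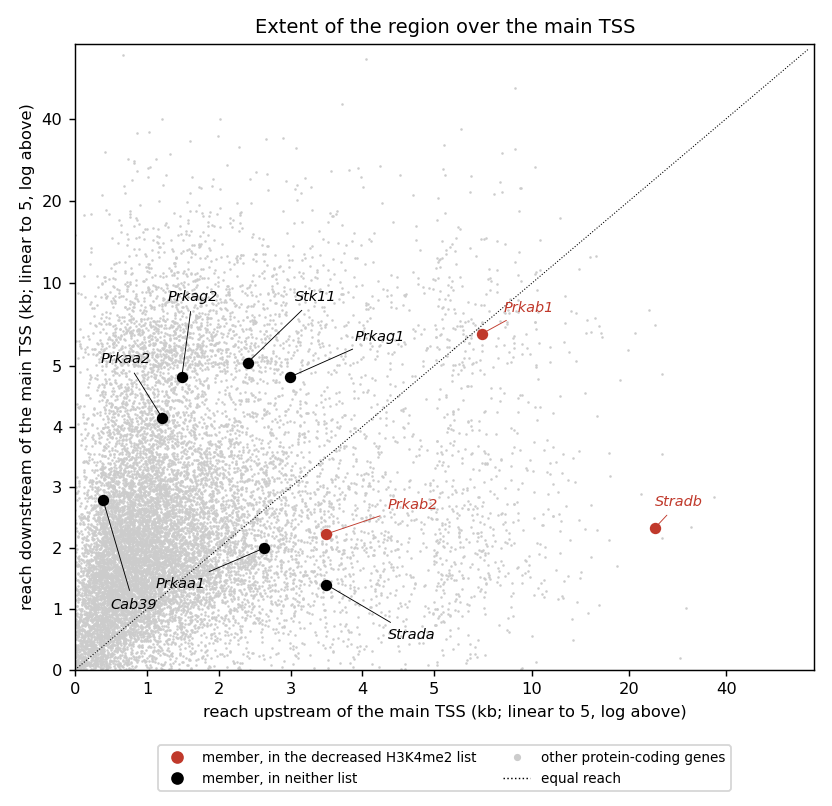
Distance in kb that the region over the main TSS extends upstream (horizontal) and downstream (vertical) of that TSS, on axes that are linear to 5 kb and logarithmic above, for the 10 genes and all other protein-coding genes. *Stradb* lies far to the right, with 24140 bp upstream and 2339 bp downstream, whereas *Prkab1* is close to the line of equal reach.

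*Stk11*, the gene of LKB1 (chr10:79578548-79593427, plus strand, 14880 bp), had 5 regions that covered 13180 bp, and none was in either list. The region over the main TSS, chr10:79576146-79583685, was 7540 bp wide, wider than 86.1% of TSS regions, and reached 2402 bp upstream and 5137 bp downstream. The next TSS cluster, inside the gene, had a region of 2440 bp. Just past the 3′ end lay a region of 2520 bp over *Dos*. The nearest decreased H3K4me2 region was 8.96 kb outside the window. It was 28900 bp wide and held the start sites of *Atp5d*, *Cirbp*, *Dos* and *Midn*.

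*Cab39*, the MO25 scaffold gene (chr1:87690016-87748151, plus strand, 58136 bp), had 18 regions that covered 19760 bp, none of them in either list. Its TSS region, chr1:87689626-87692805, was the narrowest of the 10 at 3180 bp and began 390 bp upstream of the TSS. All 5 of its annotated start sites lay in that region. Intronic regions of 3140 and 3320 bp, at 17.1 and 45.7 kb from the TSS, were about as wide as the promoter region.

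The catalytic subunit genes had no decreased region. *Prkaa1*, which encodes the widely expressed α1 subunit (chr15:5093861-5131899, plus strand), had 7 regions covering 9980 bp, with a TSS region of 4640 bp at chr15:5091226-5095865. *Prkaa2*, which encodes the α2 subunit that predominates in heart and skeletal muscle (chr4:104702479-104782495, minus strand), had 19 regions covering 26680 bp. Its TSS region, chr4:104778346-104783705, was 5360 bp wide. An intronic region of 7260 bp, chr4:104762086-104769345, was wider than the promoter region and was also in neither list. *Prkaa2* was the member farthest from a decreased H3K4me2 region, at 611 kb.

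Both β subunit genes had a decreased promoter region. *Prkab1*, which encodes β1 (chr5:116463595-116474517, minus strand, 10923 bp), had 2 regions, of 13580 and 260 bp. The wide region, chr5:116467966-116481545, was in the decreased H3K4me2 list and made up 98.1% of the covered length. It held 8 of the 9 *Prkab1* start sites and that of the noncoding gene *Gm13842*, and it reached 7028 bp upstream and 6551 bp downstream. It was wider than 96.6% of TSS regions.

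*Prkab2*, which encodes β2, the form enriched in muscle (chr3:97462116-97477735, plus strand, 15620 bp), had 4 regions, of 5720, 1160, 4180 and 960 bp. The region of 5720 bp over the main TSS, chr3:97458646-97464365, was in the decreased H3K4me2 list and made up 47.6% of the covered length. It was the narrowest of the 3 decreased promoter regions and overlapped the neighboring gene *Fmo5*, without holding its TSS. The region of 4180 bp held the start sites of 2 retained-intron transcripts and was in neither list, which does not show that it was unchanged.

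The γ subunit genes differed from each other. *Prkag1*, which encodes γ1 (chr15:98643229-98661939, minus strand, 18711 bp), had 5 regions covering 13040 bp and none in either list. Its TSS region, chr15:98657126-98664925, was 7800 bp wide, the widest among the 7 genes whose promoter was not in the list. The gene lies next to *Kmt2d*, which the annotation lists as *Mll2*. The *Prkag1* TSS region and a region of 3660 bp upstream of it, chr15:98665706-98669365, both overlapped *Mll2*, the gene that carries the floxed alleles, and neither was in a decreased list.

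*Prkag2* encodes γ2, in which inherited mutations cause a glycogen storage cardiomyopathy. It is the longest of the 10 genes (chr5:24368562-24606460, minus strand, 237899 bp) and had 67 regions covering 139480 bp, more regions than 98.2% of protein-coding genes. Per 10 kb of window it had 2.76 regions, at percentile 81.3. The region over the main TSS, chr5:24601646-24607945, was 6300 bp wide and in neither list. The decreased H3K4me2 region lay at an internal promoter, chr5:24408246-24416725, was 8480 bp wide and held 5 start sites at 191665 to 192192 bp downstream of the main TSS. It made up 6.08% of the covered length. Another internal promoter, 104889 bp downstream, had a region of 11020 bp in neither list, as did the widest region at the gene, of 14020 bp, chr5:24479106-24493125. The latter lay within an intron of *Prkag2* and held the TSS of another protein-coding gene, *1500035N22Rik*.

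The 2 decreased H3K4me1 regions of *Prkag2* were intronic and lay between its start sites. Neither was in the decreased H3K4me2 list. The wider, of 2400 bp, chr5:24585246-24587645, lay 18815 to 21214 bp downstream of the main TSS. The sequences show the main promoter, the internal promoter with the decreased H3K4me2 region, and the center of the region of 2400 bp. They are from NCBIM37 and on the minus strand, with capitals on a CCAAT box, a GC box or a HIF element (ACGTG) on either strand.
Main promoter, chr5:24606461-24606710: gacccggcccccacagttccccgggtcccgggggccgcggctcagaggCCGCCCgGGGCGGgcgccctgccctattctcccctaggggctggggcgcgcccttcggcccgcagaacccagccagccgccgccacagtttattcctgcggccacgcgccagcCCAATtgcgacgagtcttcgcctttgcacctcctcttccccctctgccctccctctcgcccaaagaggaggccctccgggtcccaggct
Internal promoter, chr5:24414796-24415045: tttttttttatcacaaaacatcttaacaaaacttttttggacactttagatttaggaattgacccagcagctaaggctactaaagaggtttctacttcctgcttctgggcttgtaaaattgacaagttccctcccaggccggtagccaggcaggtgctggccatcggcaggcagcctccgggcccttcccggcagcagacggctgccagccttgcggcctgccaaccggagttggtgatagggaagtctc
Center of the region of 2400 bp, chr5:24586346-24586545: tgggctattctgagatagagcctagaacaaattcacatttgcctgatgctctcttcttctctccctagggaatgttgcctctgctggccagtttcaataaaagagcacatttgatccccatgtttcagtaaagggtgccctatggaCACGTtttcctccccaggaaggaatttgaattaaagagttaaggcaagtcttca
The main promoter was rich in GC, at 73.2%, with a CpG observed over expected ratio of 0.723, whereas the stretch at the internal promoter had 51.6% and 0.421. That stretch ends at the most upstream start in its region, 191665 bp downstream of the main TSS. The DNA next to the other starts in the region, at 192133 to 192192 bp, was not examined. The center of the intronic region had 44% GC and a ratio of 0.104. The main promoter held 2 GC boxes and a CCAAT box, the center of the intronic region held 1 HIF element, and the internal stretch held none of the motifs.

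**Figure D3:**
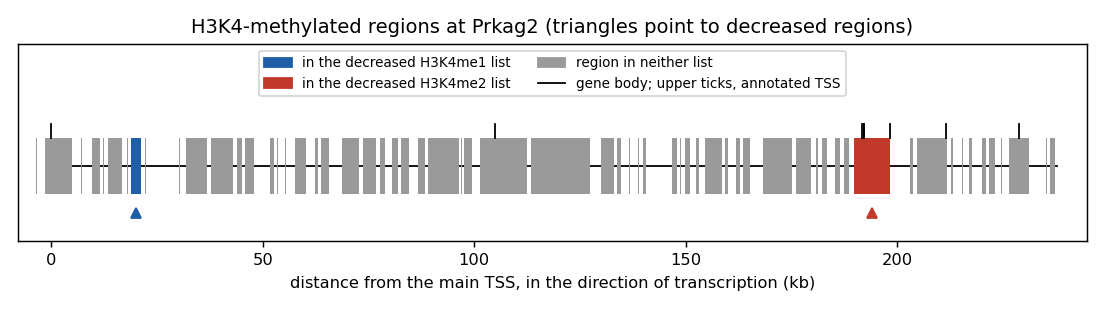
Regions at *Prkag2* by distance from the main TSS in kb, with their width and the list they are in. All but 1 of the 67 regions are drawn. The 8480-bp region at an internal promoter was in the decreased H3K4me2 list and the intronic region of 2400 bp was in the decreased H3K4me1 list.

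Across the 10 genes, main TSS regions had a median width of 6010 bp, against 3640 bp over all genes. The 3 in the H3K4me2 list were 5720, 13580 and 26480 bp wide, and the other 7 ranged from 3180 to 7800 bp with a median of 5360 bp. *Prkab2*, in the list at 5720 bp, was narrower than *Prkag2*, *Stk11* and *Prkag1*, which were not in the list, so the ranges overlapped. Over all genes, the median was 4620 bp for TSS regions in the list and 3280 bp for the others. The share in the list was higher in each wider class, from 7.64% under 2 kb to 26.9% at 2 to 4 kb, 36.2% at 4 to 8 kb, 43.5% at 8 to 16 kb and 61.3% at 16 kb or more. In the class of 4 to 8 kb, 1 of 7 members was in the list, while the single members at 8 to 16 kb (*Prkab1*) and at 16 kb or more (*Stradb*) both were. *Cab39*, at 2 to 4 kb, was not. For decreased H3K4me1, 0.649% of main TSS regions of all genes were in the list and 0 of the 10.

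**Figure D4:**
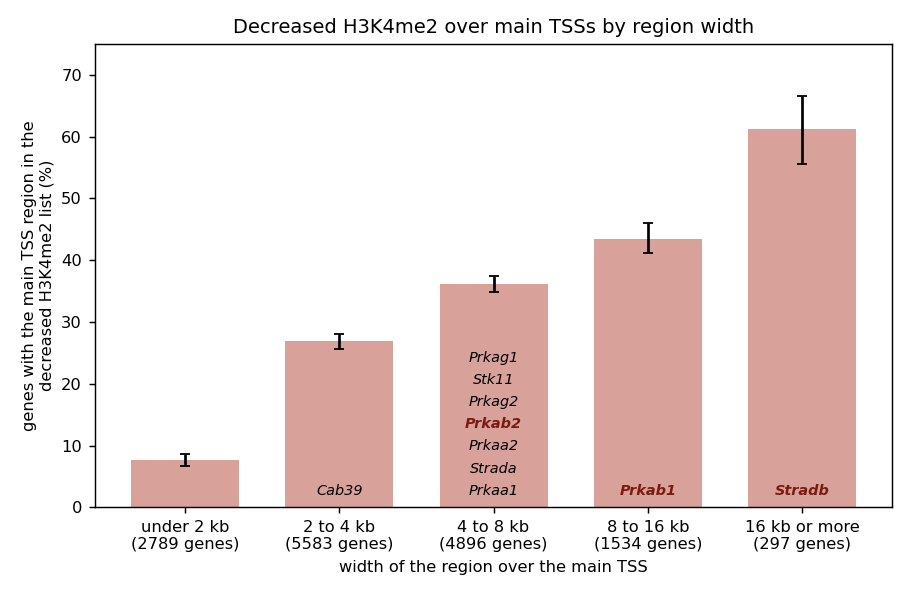
Percent of protein-coding genes whose main TSS region is in the decreased H3K4me2 list, by width of that region in kb, with 95% Wilson intervals that cover counting error only, and the members placed by width. The share goes from 7.64% to 61.3%, and *Stradb* and *Prkab1* fall in the 2 widest classes.

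The window of 5 kb decided few of these regions. Just inside it, 6 regions entered through the flank alone, at 2611 to 4459 bp from a TSS, and none was in a list. Just outside it, the nearest regions lay 4 bp beyond the window of *Strada* (140 bp wide) and 31 bp beyond that of *Prkab2* (2620 bp wide, over *Fmo5*), and both were in neither list. Of the *Stradb* region itself, 27.7% lay inside the window. The nearest decreased H3K4me2 regions outside the windows were 8.96 kb away at *Stk11* and *Prkaa1* and 18.2 kb away at *Prkag2*, where the region held the TSS of *Rheb*, an activator of mTORC1. The distances were 42.3 kb for *Prkab2*, 42.4 kb for *Prkag1*, 51.8 kb for *Cab39*, 62.9 kb for *Strada*, 107 kb for *Stradb* and 378 kb for *Prkab1*.

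The sequence upstream of the start sites was not used to choose the genes. In the 250 bases before the main TSS, GC content had a median of 65.4% in the 10 genes and 54.4% in all 22354 promoters, and 9 of the 10 were above the latter. The 2 sets are unlike, since all 10 members had the main TSS in a merged region. Only 15099 of the protein-coding genes did, and promoters without a region were not set apart. *Prkag1* was the exception at 51.6%, and *Prkaa1* was the highest at 85.2%. The CpG observed over expected ratio was above the median of all promoters (0.504) in 10 of 10, from 0.552 in *Strada* to 1.16 in *Stk11*, with a median of 0.804. *Stradb*, *Prkab1* and *Prkab2* had ratios of 0.640, 1.13 and 0.602, which lay within the range of the other 7. The *Stradb* window runs past the *Trak2* TSS and so takes in part of that gene. The 91 bases between the 2 start sites alone had 59.3% GC and a ratio of 0.255, from 2 CpG.

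Over the whole region rather than the promoter, *Stradb* differed most from the usual TSS region among the members. Its region of 26480 bp had 42.5% GC, at percentile 2.58 of TSS regions (median 50.6%), and 11.8 CpG per kb, at percentile 4.06 (median 28.9). These percentiles were not matched for width, and the median TSS region was 3640 bp wide. Of the *Stradb* region, 90.8% lay over *Trak2*. The *Strada* region had 46.1% GC and 19.0 CpG per kb. Those of *Prkab1* and *Prkab2* had 49.6% and 47.6% GC, with 24.4 and 27.6 CpG per kb.

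Of 10 short motifs searched on both strands, 3 were found in these promoters. The GC box GGGCGG was present in 7 of 10 (*Strada*, *Cab39*, *Prkaa1*, *Prkaa2*, *Prkab2*, *Prkag1* and *Prkag2*), against 40.1% of all promoters. The CCAAT box was present in *Stk11*, *Prkag1* and *Prkag2*, against 35.0%, and the HIF element ACGTG in *Stk11* and *Cab39*, against 17.4%. The E-boxes CACGTG and CAGCTG (6.54% and 11.7% of all promoters), the TATA box TATAAA (12.3%), the CRE TGACGTCA (1.94%), the NRF1 motif GCGCATGC (2.76%), the MEF2-like motif TAAAAATA (2.26%) and the GATA motif AGATAA (9.30%) were in 0 of the 10. ACGTG is part of CACGTG. The shares of all promoters include genes without a region over the main TSS, which all 10 members had. A match gives letters in this window and not a bound site.

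Around the complex, 34 other genes of the pathway were looked up, and all had a main TSS inside a region. The main TSS region was in the decreased H3K4me2 list in 8 (23.5%, against 28.7% of all genes), and none was in the decreased H3K4me1 list. Any decreased H3K4me2 region was present in 14 (41.2%, against 28.7%) and any decreased H3K4me1 region in 4 (11.8%, against 7.07%), while 19 had neither. These genes are long, with a median of 56934 bp against 15427 bp for all protein-coding genes, and had 651 regions, of which 15 (2.30%) were in the H3K4me2 list and 6 (0.922%) in the H3K4me1 list, against 2.69% and 0.935% of all regions at genes.

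Neither paralogue of the complex, *Cab39l* or the muscle γ3 gene *Prkag3*, was in a list. Of the 3 other kinases that act on AMPK, *Map3k7*, which encodes TAK1, had a decreased H3K4me2 region of 10680 bp over its TSS. Among 12 kinases that LKB1 activates besides AMPK, the promoters of *Mark1* (4200 bp), a microtubule affinity-regulating kinase, *Sik2* (3700 bp), a salt-inducible kinase, and *Nuak1* (7800 bp) were in the H3K4me2 list. Intronic regions of *Nuak1* (3380 bp) and *Sik3* (1040 and 4540 bp) were in the H3K4me1 list, and an intronic region of *Mark2* of 160 bp was in both. The other 7 were in neither list.

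Among 17 substrates and partners of AMPK, the promoters of 4 were in the H3K4me2 list. *Foxo3*, a transcription factor of stress resistance, had the widest at 36440 bp, reaching 33775 bp downstream. *Flcn* (3400 bp) and *Fnip1* (5820 bp) encode folliculin and its partner, which bind AMPK, and *Mff* (3160 bp) encodes a receptor for mitochondrial fission. An internal TSS lay in a decreased H3K4me2 region in *Acaca*, which encodes acetyl-CoA carboxylase (3560 bp), and in *Eef2k*, which encodes the kinase of translation elongation factor 2 (3320 bp). *Acaca* also had H3K4me1-decreased regions of 4040 and 2140 bp. *Camkk2*, *Pfkfb2* and *Crtc2*, named after their values were seen, had decreased H3K4me2 regions that held no TSS of the gene, and those at *Pfkfb2* and *Crtc2* held the TSS of *AA986860* and *Slc39a1*.

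**Figure D5:**
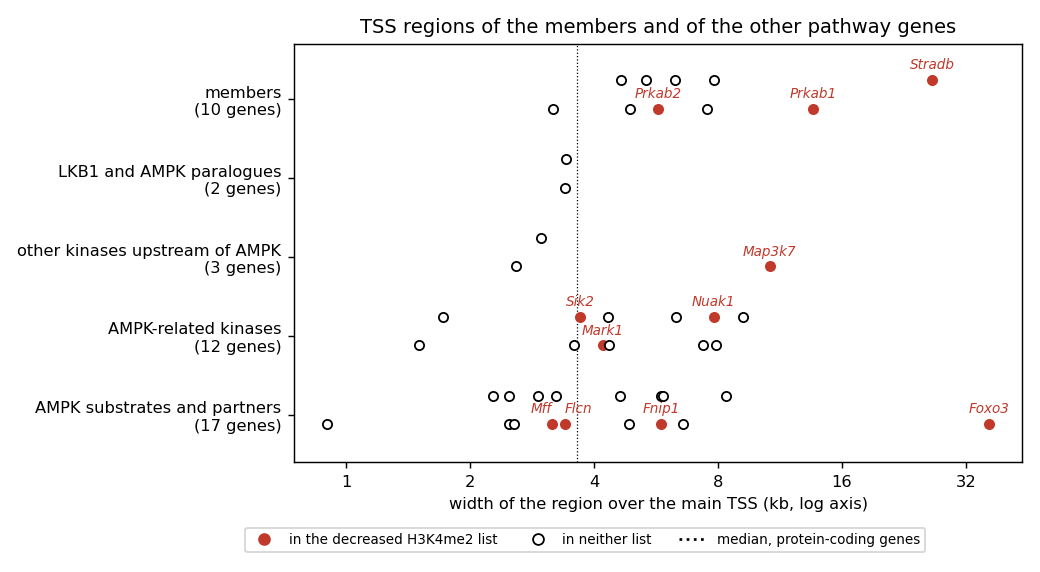
Width of the region over the main TSS in kb (log axis) for the 10 genes and 34 other pathway genes by list, with filled points for regions in the decreased H3K4me2 list and the dotted line at the median of all protein-coding genes, 3640 bp. *Foxo3*, *Stradb*, *Prkab1* and *Map3k7* have the widest decreased regions.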

How the data were processed

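ChIP-Seq libraries of control and mutant E11.5 hearts were processed by the authors, who deposited 3 lists of regions as chromosome, start and end, with no count, score or *P* value: regions with H3K4me1, H3K4me2 or H3K4me3 merged over libraries, and those with decreased H3K4me1 or H3K4me2 in mutants. The submitters' processing notes name mm9, CASAVA 1.8.2, FastQC, Bowtie2, Bowtie and SAMtools, without roles. The peak caller and the test are not given in the sources used here. Calls pooled 3 replicates per group, and groups were taken from sample titles.

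Starts were made 1-based. Regions overlapping a gene window by at least 1 bp were assigned with GENCODE vM1 (NCBIM37), and a decrease was called on identical coordinates. Wilson intervals (95%) cover counting error only. The scripts (Python 3.11.15, numpy 2.4.6, pandas 2.3.3) were tested on simulated regions. All 12 RefSeq promoters of the members (GRCm38.p6) matched NCBIM37 exactly once. The members, lists and alternatives were chosen with earlier results of these data known. The text names all members, the pathway genes with a TSS in a decreased region or with decreased H3K4me1, coding genes sharing a member's TSS region, and the 5 genes closest to *Stradb* in width. The sequence and position of 1 region of *Prkag2* are not reported here.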

Additional observations from a re-analysis of the deposited data

How the results depend on the processing

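Of 35 alternative values for 7 results, 29 stayed within the 95% interval, or for counts the factor of 1.5, set for them. The regions at the members numbered 94 instead of 143 when only those of at least 500 bp were kept, and 76 without *Prkag2*, an alternative chosen after seeing the data. The share of protein-coding genes with the TSS region in the H3K4me2 list was 33.5% for regions of at least 2 kb and 27.5% with each region counted once, instead of 28.7%. The percentile of the *Stradb* width was 98.8 among genes in that list and 98.9 with regions less than 1 kb apart joined, instead of 99.6. Members with decreased H3K4me2 numbered 3 instead of 4, without *Stradb*, when at least 50% of a region had to lie in the window. They numbered 5 when neighbors were joined, because the last *Stk11* region became part of a decreased domain of 45180 bp. With any RefSeq promoter in place of the main TSS, also chosen after seeing the data, 4 instead of 3 members had a decreased promoter.

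No paired analysis was possible because the lists hold no value per replicate, and no replicate was left out for the same reason. With depth unknown, a region outside a list is not shown to be unchanged.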
